A study of Homo sapiens with 8 samples.

Results

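Estrogen target genes are genes whose transcription is known to respond to the estrogen receptor. Here 42 of them were followed in ZR-75-1 cells given an androgen on top of estrogen. They were listed by name for that known role, with earlier results of these data known. All 42 were found by name among the 57773 genes of the deposited table, and 37 of them reached a mean of 0.5 RPKM (reads per kilobase of exon, scaled to the depth of the library), the minimum for a test. ZR-75-1 is a long-established line of human breast cancer cells that express the estrogen receptor. In both groups the cells first spent 72 h without steroids, in phenol red-free medium with charcoal-stripped serum. For the last 4 h, 4 libraries received 10 nM estradiol (E2) and 4 received 10 nM E2 together with 10 nM dihydrotestosterone (DHT), an androgen. Every library therefore carries estrogen, and the response of these genes to E2 itself was not measured.

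The record titles, with the treatment fields that go with them, and the library names disagree on the treatment of 4 of the 8 libraries. Groups and replicate numbers here follow the library names, which also head the columns of values. The passage field runs with the titles, which put passages 8 to 11 in each treatment. Joined to the library names, it puts passages 8 and 10 in E2 and passages 9 and 11 in E2+DHT, and in that reading passage and treatment cannot be told apart. FKBP5, a co-chaperone induced by androgens in many cells, was 0.652, 0.812, 0.835 and 0.841 RPKM in E2 replicates 1 to 4 and 2.55, 2.19, 1.91 and 2.15 RPKM in E2+DHT replicates 1 to 4, with no overlap between the groups named this way. FKBP5 was picked with earlier results of these data known, so its values are a description of the libraries. Separate cultures are not stated for the replicates, so the p-values measure the spread between these libraries.

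Estrogen receptor alpha, encoded by ESR1, binds estradiol and then DNA, mostly at enhancers and with the help of FOXA1 and GATA3, and recruits cofactors that raise or lower transcription. Its targets in breast cancer cells include secreted proteins, regulators of the cell cycle, receptors, ion channels and metabolic enzymes, and several serve as clinical markers of an active receptor.

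The steps of the RPKM values gave back whole reads, with denominators of 19599217 to 34616639 reads per library, of which 78.3% to 84.8% lay in the exons of the table. E2 replicate 2 had the lowest share of reads in exons. All 10 luminal epithelial markers were expressed and tested, from ESR1 at a mean of 6.17 RPKM to KRT19 at 857 RPKM. Only ESR1 had an unadjusted p under 0.05, on the lower side (10%, against 1.59% of all tested genes). Markers of other cell types were mostly near 0. The summed level of 10 immune markers was 0.824 to 1.26 RPKM in E2 and 0.872 to 1.51 RPKM in E2+DHT, that of 10 fibroblast markers 0.914 to 1.10 and 0.884 to 1.32 RPKM, and that of 7 endothelial markers 0.980 to 1.12 and 0.889 to 1.11 RPKM. The 10 basal markers summed to 11.8 to 16.6 and 13.0 to 15.5 RPKM, most of it from CDH3 (mean 12.7 RPKM). EGFR, another basal marker, had a mean of 1.29 RPKM. The fibroblast, endothelial and immune lists were led by COL1A1, ESAM and LYZ, at means of 0.800, 0.860 and 0.440 RPKM. THY1 and CD3D were at 0 in all libraries, while KRT5, KRT14 and TP63 had means of 0.00347, 0.00760 and 0.0209 RPKM.

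Of the 37 tested members, 1 passed the test. SYBU rose, at 1.79 times its mean RPKM in E2, 0 fell, and the other 36 did not pass. Among all 11375 tested genes 0.176% passed as higher and 0.00879% as lower (limma on log2(RPKM + 0.5), Benjamini-Hochberg over all tested genes, threshold 0.05). The count of higher genes over the whole table, 20 with all libraries, was 18 without E2 replicate 1, 7, 9 and 6 without E2 replicates 2, 3 and 4, and 7, 6, 11 and 10 without E2+DHT replicates 1 to 4, and the count of lower genes, 1 with all libraries, was 1 without E2+DHT replicate 4 and 0 in the other 7 of these fits. Short of that threshold, PPIF, SIAH2 and JAK2 lay on the higher side and PDZK1, KCNK5, RERG, MYB and UGCG on the lower side with an unadjusted p under 0.05. Counting SYBU, that made 4 of 37 members higher (10.8%, against 2.87% of all tested genes) and 5 lower (13.5%, against 1.59%). Of 10 long-known targets, SIAH2, PDZK1 and MYB were among these members. GREB1, TFF1, TFF3, MYC, CTSD and CA12 were not, and RET was too low to test. The same 0 lower members were found with limma's voom on the recovered reads.

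Differences of the members lay on both sides of 0. Their median difference, E2+DHT minus E2, was 0.035 on the log2(RPKM + 0.5) scale, against 0.014 for all tested genes, and 22 of 37 (59.5%) were positive, against 56.3% of all. The 95% interval lay within a 1.5-fold change in either direction for 32 of 37 members (86.5%), against 96.5% of all tested genes. CTSD, GREB1, PPIF, SYBU and PDZK1 were the members whose interval reached further. Values in the 4 E2+DHT libraries lay above all 4 of E2 in 3 members (8.11%, against 1.98% of all tested genes), SYBU, PPIF and JAK2. They lay below all 4 of E2 in 4 members (10.8%, against 1.42%), KCNK5, MYB, UGCG and OLFM1. For OLFM1, JAK2, MYB and UGCG the margin was slight, as their library values show. The member list was assembled with earlier results of these data known, so these shares describe the list and carry no test.

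**Figure D1:**
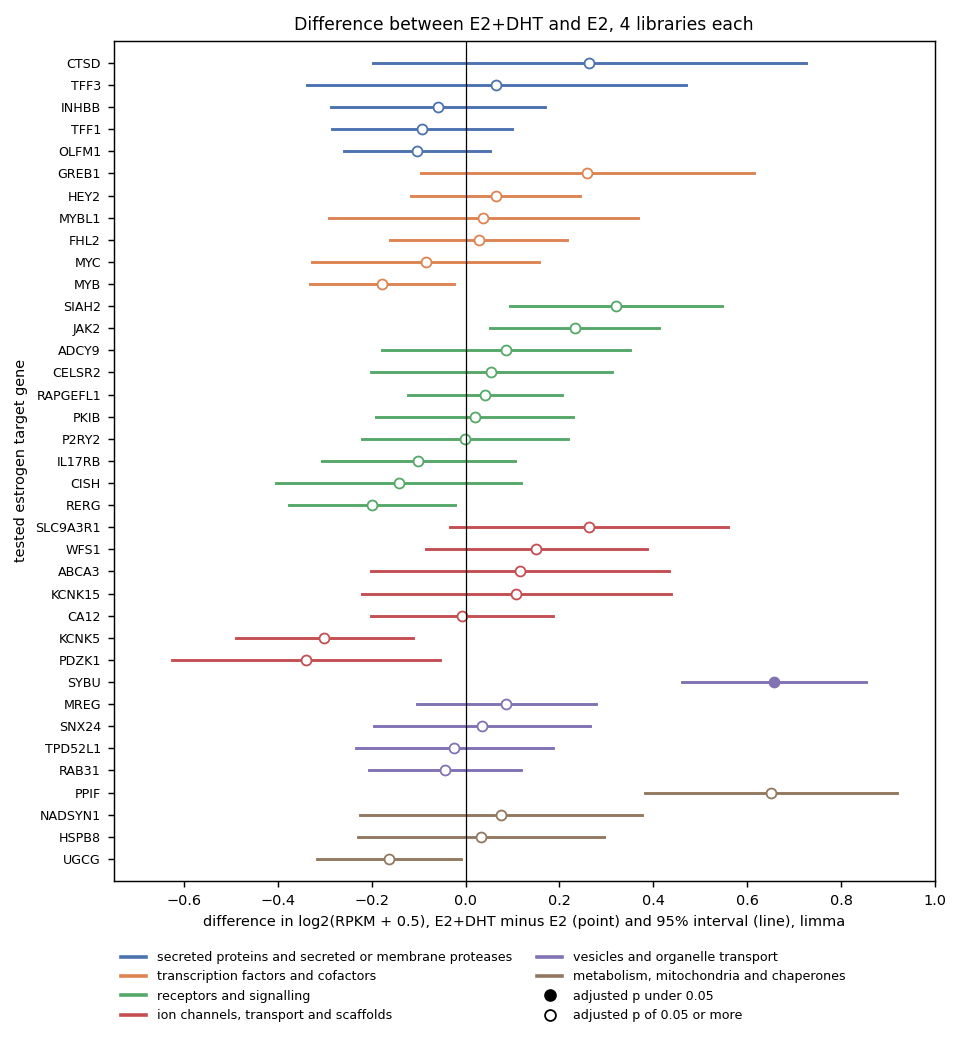
Difference in log2(RPKM + 0.5) between E2+DHT and E2 (point) with its 95% interval (line) for the 37 tested members, grouped and coloured by role, 4 libraries per treatment; a filled point has a limma adjusted p under 0.05. SYBU at 0.66 and PPIF at 0.65 stand to the right of all other members, and PDZK1 at -0.34 and KCNK5 at -0.30 furthest to the left.

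Promoters are shown before the library values for members at both ends of this range and for the long-known target CTSD, to let the letters around the starts be read beside the values. The windows are RefSeq's on GRCh38.p14, a different build from the hg19 of the deposited table, and hold 250 bases before and 50 after a start. Of the 42 members 32 could be matched, with 48 windows, SLC9A3R1 through its present symbol NHERF1. ADCY9, GREB1, KCNK15, MYBL1, MYC, P2RY2, RERG, SYBU, TFF1 and TFF3 were not matched. The estrogen palindrome searched was GGTCA, any 3 bases, then TGACC, which reads the same on both strands. None of the 48 member windows held it in full or with 1 mismatch, against 0.0570% of all 35116 windows in full and 0.817% with at most 1 mismatch. With at most 2 mismatches it was in 4 member windows (8.33%, against 10.2% of all). One arm alone, GGTCA on either strand, was in 14 member windows (29.2%, against 37.4% of all). These windows end close to the start and hold no distant enhancer.

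The 250 bases before the start are printed 5′ to 3′ in the direction of transcription, with each GGTCA, or its reverse complement TGACC, in capitals. The windows were chosen after the values were seen. PPIF lies at chr10:79347219-79347468 (plus strand) and holds no arm. KCNK5 lies at chr6:39229476-39229725 (minus strand) with 1 arm that begins 188 bases before the start. PDZK1 lies at chr1:145707401-145707650 (minus strand) with 1 arm 68 bases before the start. Another PDZK1 window, chr1:145707369-145707618, is not printed and holds the same arm 100 bases before its own start. CTSD lies at chr11:1763928-1764177 (minus strand) with 3 arms, 195, 43 and 18 bases before the start.
PPIF: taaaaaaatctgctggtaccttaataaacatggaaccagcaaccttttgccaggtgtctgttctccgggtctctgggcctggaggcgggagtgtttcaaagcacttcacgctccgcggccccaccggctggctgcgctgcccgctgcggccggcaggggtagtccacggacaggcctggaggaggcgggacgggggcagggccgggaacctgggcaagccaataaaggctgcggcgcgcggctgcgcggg
KCNK5: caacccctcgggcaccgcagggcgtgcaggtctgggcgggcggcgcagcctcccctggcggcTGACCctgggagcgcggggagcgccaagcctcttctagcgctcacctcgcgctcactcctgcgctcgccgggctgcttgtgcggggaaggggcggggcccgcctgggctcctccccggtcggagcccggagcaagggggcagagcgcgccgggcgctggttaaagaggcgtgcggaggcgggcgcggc
PDZK1: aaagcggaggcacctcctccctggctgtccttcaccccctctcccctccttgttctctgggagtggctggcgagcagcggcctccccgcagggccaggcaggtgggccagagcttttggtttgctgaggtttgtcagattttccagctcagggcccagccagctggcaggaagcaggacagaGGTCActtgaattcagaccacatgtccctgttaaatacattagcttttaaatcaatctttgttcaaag
CTSD: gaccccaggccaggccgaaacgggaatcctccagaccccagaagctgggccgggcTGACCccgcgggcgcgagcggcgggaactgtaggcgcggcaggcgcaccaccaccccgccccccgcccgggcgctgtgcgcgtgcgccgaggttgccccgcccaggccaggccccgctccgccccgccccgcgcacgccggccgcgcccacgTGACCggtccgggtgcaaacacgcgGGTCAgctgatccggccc

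The vesicle and organelle transport genes held the single member that passed. SYBU encodes syntabulin, an adaptor that links cargo to kinesin motors, and lies on hg19 (chromosome 8, 110586207 to 110704020, minus strand). It had 1.45, 1.38, 1.48 and 1.15 RPKM in E2 replicates 1 to 4 and 2.59, 2.72, 2.32 and 2.15 RPKM in E2+DHT replicates 1 to 4. All 4 E2+DHT values were above all 4 of E2, and the spread within each treatment was small beside the gap. The group means were 1.37 ± 0.148 and 2.44 ± 0.2599 RPKM (mean ± SD, n = 4 per group), with a log2 difference of 0.66 with a standard error of 0.0884 (95% interval 0.46 to 0.85, limma adjusted p = 0.0225). SYBU was a low member, with 325, 247, 208 and 166 recovered reads in E2 and 629, 375, 562 and 481 in E2+DHT.

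SYBU passed under the library names with no overlap between the groups, so any split of the libraries must show the same order. Its values are therefore only described for libraries whose labels agree and for those whose labels conflict. In the 4 libraries on which title and library name agree, SYBU had 1.45 and 1.38 RPKM with E2 and 2.32 and 2.15 RPKM with E2+DHT. In the other 4 libraries it had 1.48 and 1.15 RPKM under the library name E2 and 2.59 and 2.72 RPKM under the library name E2+DHT. Its call was thin: it passed in 2 of the 8 fits that left out a library, those without E2 replicate 1 (limma adjusted p = 0.0492) and without E2+DHT replicate 4 (0.0404). The limma adjusted p was 0.0511, 0.0555 and 0.0764 without E2 replicates 2, 3 and 4, and 0.0894, 0.125 and 0.0802 without E2+DHT replicates 1, 2 and 3, with log2 differences of 0.60 to 0.71 over the 8 fits.

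The other 4 members of this group did not pass. RAB31, a small GTPase of endosomes, had 14.4 ± 0.907 RPKM in E2 and 13.95 ± 0.909 RPKM in E2+DHT (mean ± SD, n = 4 per group), and the interval of its log2 difference was -0.21 to 0.12. MREG, which takes part in melanosome transport, had 13.9 ± 1.604 and 14.7 ± 0.807 RPKM (interval -0.10 to 0.28). SNX24, a sorting nexin, ranged from 2.07 to 2.85 RPKM over the 8 libraries and TPD52L1, a tumor protein D family member, from 3.64 to 4.801 RPKM, with intervals of -0.20 to 0.27 and -0.23 to 0.19. MREG overlaps PECR on the same strand, and SNX24 and TPD52L1 overlap PPIC and HDDC2 on the other strand. Whether the counting used strand is not given in the sources used here, so some reads of these pairs may be shared.

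Among 4 genes of metabolism, mitochondria and chaperones, PPIF lay highest. PPIF encodes cyclophilin D, a regulator of the mitochondrial permeability transition pore, and lies on hg19 (chromosome 10, 81107225 to 81115093, plus strand). It had 29.6, 21.2, 26.99 and 21.4 RPKM in E2 replicates 1 to 4 and 45.4, 37.7, 36.8 and 36.1 RPKM in E2+DHT replicates 1 to 4. The lowest E2+DHT library was above the highest E2 library, and E2+DHT replicate 1 stood above the rest of its group. The means were 24.8 ± 4.17 and 39.02 ± 4.33 RPKM (mean ± SD, n = 4 per group), 1.57 times as high with DHT, a log2 difference of 0.65 with a standard error of 0.121 and a 95% interval of 0.38 to 0.92. This did not pass (limma adjusted p = 0.0799). PPIF passed in 1 of the 8 fits that left out a library, that without E2 replicate 1 (limma adjusted p = 0.0492). In the other fits of this kind the limma adjusted p was 0.145 to 0.279. PPIF also passed after scaling all libraries to the same RPKM sum (0.0293) and after centring on the median gene (0.0247). It did not pass with voom on the recovered reads (limma adjusted p = 0.0552). A minimum mean of 2 RPKM gave 0.0806, and adjustment over all expressed genes gave 0.272, neither a pass. With 1174 to 4206 recovered reads per library, PPIF was measured at greater depth than SYBU.

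UGCG, which makes glucosylceramide, lay on the other side. It had 18.7, 17.5, 18.5 and 20.9 RPKM in E2 replicates 1 to 4 and 16.98, 16.7, 17.3 and 16.3 RPKM in E2+DHT replicates 1 to 4. The groups did not overlap, the highest E2+DHT value being just below the lowest of E2, and E2 replicate 4 was the highest library. The log2 difference was -0.16 (95% interval -0.32 to -0.0093, limma adjusted p = 0.999). HSPB8, a small heat shock protein, had an interval of -0.23 to 0.29, and NADSYN1, an NAD synthetase, -0.22 to 0.38, both on either side of 0.

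**Figure D2:**
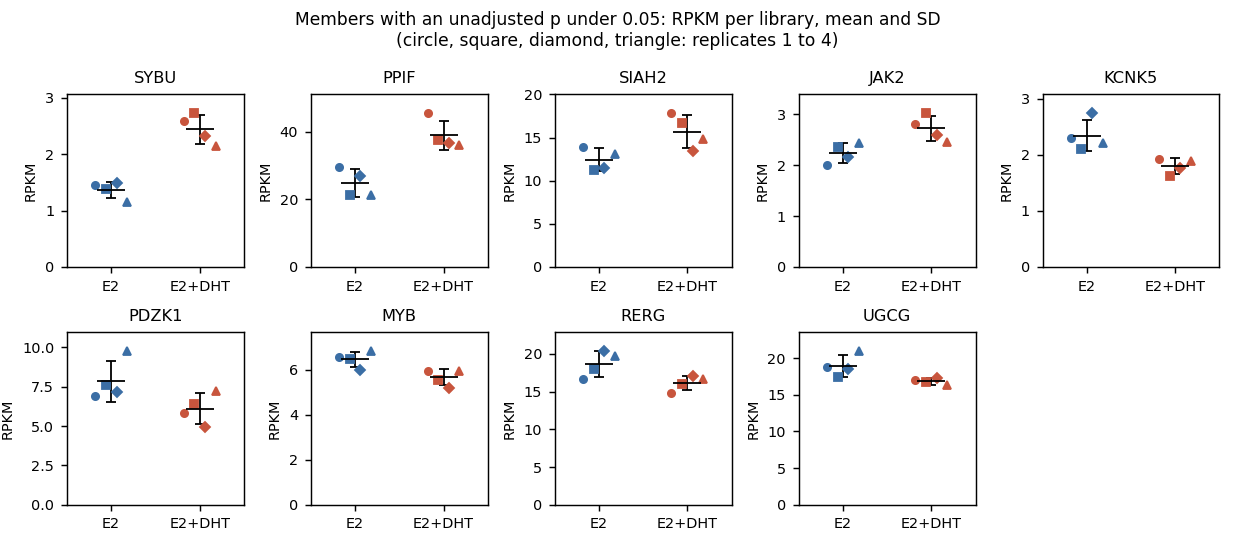
RPKM per library of the 9 members with an unadjusted p under 0.05, with the mean and SD of the 4 libraries of each treatment; symbols mark replicates 1 to 4. SYBU, PPIF and JAK2 have all E2+DHT points above all E2 points, KCNK5, MYB and UGCG all below, and SIAH2, PDZK1 and RERG overlap.

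Of 11 members in receptors and signalling, 10 were tested and 0 passed. At an unadjusted p under 0.05, 2 were higher (20%, against 2.87% of all tested genes) and 1 was lower (10%, against 1.59%). SIAH2, an E3 ubiquitin ligase, had 13.9, 11.2, 11.5 and 13.1 RPKM in E2 replicates 1 to 4 and 17.8, 16.7, 13.5 and 14.8 RPKM in E2+DHT replicates 1 to 4. Only E2+DHT replicate 3 fell within the range of the E2 libraries. The means were 12.4 ± 1.29 and 15.7 ± 1.92 RPKM (mean ± SD, n = 4 per group), with a log2 difference of 0.32 (interval 0.095 to 0.55, limma adjusted p = 0.6502).

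JAK2, the tyrosine kinase of many cytokine receptors, had 2.01, 2.36, 2.16 and 2.45 RPKM in E2 and 2.81, 3.02, 2.61 and 2.46 RPKM in E2+DHT, in replicate order. The E2+DHT values were all higher, though replicate 4 of the 2 treatments had almost the same level. Its log2 difference was 0.23 (interval 0.053 to 0.41, limma adjusted p = 0.796). CISH, a feedback inhibitor of the same cytokine pathway, was 5.73 ± 0.933 RPKM in E2 and 5.13 ± 0.641 RPKM in E2+DHT (mean ± SD, n = 4 per group), with an interval of -0.40 to 0.12. CISH overlaps MAPKAPK3 on the other strand, which had a mean of 14.0 RPKM.

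RERG, a Ras-related protein named for its regulation by estrogen and its inhibition of growth, had 16.6, 17.997, 20.3 and 19.7 RPKM in E2 and 14.9, 16.1, 17.03 and 16.7 RPKM in E2+DHT, in replicate order. E2 replicate 1 was below 2 of the E2+DHT libraries, and the other E2 libraries were above all of them. The log2 difference was -0.20 (interval -0.38 to -0.022, limma adjusted p = 0.999). Among the other tested genes of this group, CELSR2, a cadherin-type receptor, ADCY9, which makes cyclic AMP, PKIB, an inhibitor of protein kinase A, P2RY2, a nucleotide receptor, RAPGEFL1, a guanine nucleotide exchange factor-like protein, and IL17RB, an interleukin receptor, had log2 differences between -0.10 for IL17RB and 0.086 for ADCY9. The interval of each of these 6 included 0 and stayed within a 1.5-fold change.

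RET, a receptor tyrosine kinase and a known estrogen target in MCF-7 cells, was too low to test. It had 0.268, 0.165, 0.173 and 0.176 RPKM in E2 and 0.178, 0.107, 0.109 and 0.226 RPKM in E2+DHT, in replicate order, from 57, 28, 23 and 24 and 41, 14, 25 and 48 recovered reads. The 2 groups overlapped, and E2 replicate 1 was the highest library.

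The 7 members of ion channels, transport and scaffolds were all tested and 0 passed. At an unadjusted p under 0.05, 0 were higher (against 2.87% of all tested genes) and 2 were lower (28.6%, against 1.59%). KCNK5, a potassium channel, had 2.303, 2.11, 2.74 and 2.21 RPKM in E2 replicates 1 to 4 and 1.93, 1.62, 1.76 and 1.89 RPKM in E2+DHT replicates 1 to 4. Each E2+DHT library was below each E2 library, and E2 replicate 3 was the highest. Its means were 2.34 ± 0.275 and 1.801 ± 0.143 RPKM (mean ± SD, n = 4 per group), with a log2 difference of -0.30 with a standard error of 0.0848 (interval -0.49 to -0.11, limma adjusted p = 0.436).

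PDZK1, a scaffold for membrane transporters, had 6.89, 7.63, 7.17 and 9.76 RPKM in E2 and 5.85, 6.43, 4.92 and 7.22 RPKM in E2+DHT, in replicate order. The ranges overlapped, E2 replicate 4 being the highest library and E2+DHT replicate 3 the lowest. Its log2 difference was -0.34 (interval -0.63 to -0.055, limma adjusted p = 0.963). SLC9A3R1, the NHERF1 scaffold of the same kind, lay on the other side, with 189 ± 30.8 RPKM in E2 and 227 ± 29.99 RPKM in E2+DHT (mean ± SD, n = 4 per group) and an interval of -0.034 to 0.56, and 0 lay inside it. It overlaps MIR3615_1 on the other strand, at a mean of 14.2 RPKM.

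CA12, a membrane carbonic anhydrase and a marker of estrogen receptor positive tumors, was almost level. It had 55.98, 55.4, 61.2 and 65.2 RPKM in E2 replicates 1 to 4 and 56.1, 56.2, 56.7 and 67.8 RPKM in E2+DHT replicates 1 to 4, with replicate 4 highest in both treatments. The log2 difference was -0.0072, and its interval, -0.20 to 0.19, bounds a change in either direction (limma adjusted p = 0.9997). KCNK15, another potassium channel, ABCA3, a lipid transporter, and WFS1, a protein of the endoplasmic reticulum membrane, had log2 differences of 0.11, 0.12 and 0.15, and the interval of each included 0.

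Of 7 transcription factors and cofactors, 6 were tested and 0 passed. MYB alone had an unadjusted p under 0.05, on the lower side (16.7%, against 1.59% of all tested genes). MYB, a proto-oncogene whose elongation is known to be released by estrogen in breast cancer cells, had 6.57, 6.48, 6.001 and 6.82 RPKM in E2 and 5.96, 5.55, 5.198 and 5.92 RPKM in E2+DHT, in replicate order. The groups did not overlap, though the gap between E2 replicate 3 and E2+DHT replicate 1 was narrow. Its means were 6.47 ± 0.342 and 5.66 ± 0.359 RPKM (mean ± SD, n = 4 per group), with a log2 difference of -0.18 (interval -0.33 to -0.024, limma adjusted p = 0.985). Its relative MYBL1 had 0.038 (interval -0.29 to 0.37), and the difference between the 2 genes was not tested.

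GREB1, a cofactor of the estrogen receptor and one of its most responsive targets, had 16.9, 11.2, 11.4 and 14.1 RPKM in E2 and 19.3, 14.1, 12.8 and 18.3 RPKM in E2+DHT, in replicate order. The groups overlapped broadly, and in both treatments replicates 1 and 4 were the highest libraries. The log2 difference was 0.26 with a standard error of 0.1599 (interval -0.10 to 0.61, limma adjusted p = 0.999), so that a change of over 1.5-fold upward lies within its interval.

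MYC, a driver of cell growth, had 21.6, 17.3, 18.9 and 16.5 RPKM in E2 and 20.9, 15.8, 16.01 and 17.4 RPKM in E2+DHT, in replicate order. Replicate 1 was the highest library of each treatment, and the ranges overlapped. Its interval was -0.33 to 0.16 (log2 difference -0.085, limma adjusted p = 0.999). HEY2, a Notch effector, and FHL2, a LIM domain cofactor, were low, at 0.878 to 1.22 and 1.23 to 1.695 RPKM over the 8 libraries, with intervals of -0.12 to 0.24 and -0.16 to 0.22. TGIF2, a transcriptional repressor, was below the minimum at 0.162 to 0.306 RPKM.

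Of 8 secreted proteins and proteases, 5 were tested and 0 passed. At an unadjusted p under 0.05, 0 were higher (against 2.87% of all tested genes) and 0 were lower (against 1.59%). TFF1, a trefoil peptide and classic estrogen marker, was the highest of all 42 members. It had 377, 341, 393 and 385 RPKM in E2 and 382, 322, 344 and 355 RPKM in E2+DHT, in replicate order. The groups overlapped, and the interval of the log2 difference was -0.28 to 0.10 (log2 difference -0.092, limma adjusted p = 0.999).

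TFF3, its neighbor on chromosome 21, had 102, 55.8, 102 and 71.04 RPKM in E2 and 94.8, 80.04, 87.5 and 73.9 RPKM in E2+DHT, in replicate order. E2 replicate 2 was lowest and E2 replicates 1 and 3 highest, so the E2+DHT values lay inside the E2 range. Its log2 difference was 0.065 (interval -0.34 to 0.47, limma adjusted p = 0.999), and -0.11 without E2 replicate 2.

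CTSD, the lysosomal protease cathepsin D, had 146, 68.3, 115 and 90.01 RPKM in E2 and 140.4, 104, 108 and 136 RPKM in E2+DHT, in replicate order. The E2 libraries spanned more than the whole range of the E2+DHT libraries, again with E2 replicate 2 lowest. CTSD had the widest interval of the tested members, -0.20 to 0.72 (log2 difference 0.26, limma adjusted p = 0.999), and its difference was 0.077 without E2 replicate 2. It overlaps the much lower RP11-295K3.1 on the same strand. OLFM1, a secreted glycoprotein, had 8.44, 8.37, 9.55 and 8.61 RPKM in E2 and 7.41, 8.32, 8.37 and 8.34 RPKM in E2+DHT, in replicate order. E2 replicate 2 and E2+DHT replicate 3 met at the same rounded level, so the groups were separated by almost nothing (interval -0.26 to 0.053). INHBB, an activin and inhibin subunit, had an interval of -0.29 to 0.17.

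CXCL12, a chemokine, PRSS23, a serine protease, and TMPRSS3, a membrane-bound serine protease, were below the minimum level. They ranged from 0.0543 to 0.498, 0.0241 to 0.0583 and 0.123 to 0.227 RPKM over the 8 libraries. CXCL12 had 22, 12, 17 and 65 recovered reads in E2 and 12, 15, 15 and 20 in E2+DHT, in replicate order, with E2 replicate 4 far above the rest. PRSS23 had 6 to 15 reads and TMPRSS3 19 to 41 reads per library, too few to show a moderate change.

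**Figure D3:**
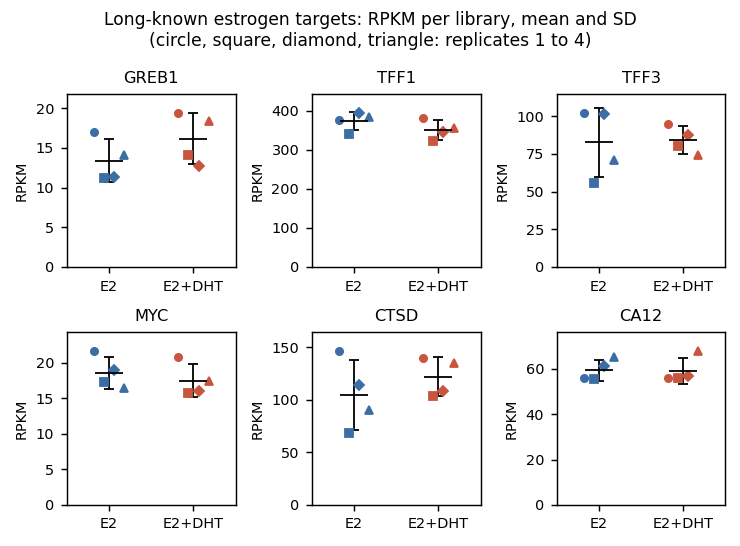
RPKM per library of 6 long-known estrogen targets, with the mean and SD of the 4 libraries of each treatment; symbols mark replicates 1 to 4. The groups overlap in all 6, and the E2 libraries of CTSD and TFF3 spread the most, down to 68.3 and 55.8 RPKM in E2 replicate 2.

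**Figure D4:**
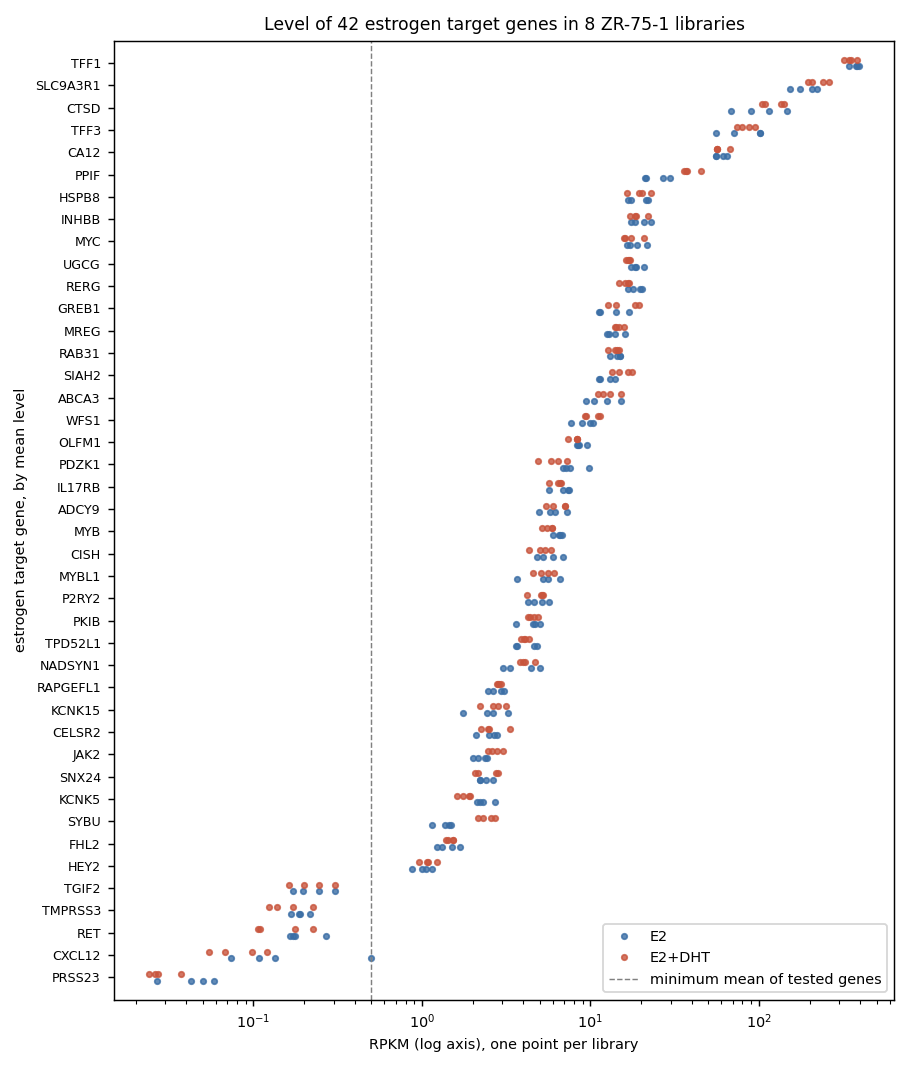
RPKM in each of the 8 libraries (log axis) for all 42 members, ordered by mean level, with the dashed line at the minimum mean of 0.5 RPKM for a test. Levels run from a mean of 362 RPKM for TFF1 to 0.0365 RPKM for PRSS23, and TGIF2, TMPRSS3, RET, CXCL12 and PRSS23 have means below the line.

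Per length of transcript the members were somewhat higher than other genes, with a median of the mean RPKM of 6.98, against 4.13 for all tested genes. TFF1, SLC9A3R1, CTSD, TFF3 and CA12 led, at means of 362, 208, 113, 83.3 and 59.3 RPKM. This order held in each library, with TFF3 and CA12 closest in E2 replicate 2 (55.8 and 55.4 RPKM). Over all 8 libraries the range of TFF3 overlapped those of CTSD and CA12. The members also varied a little more between replicates, with a median residual SD of 0.158 on the log2 scale, against 0.128 for all tested genes.

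One library was often the lowest. E2 replicate 2 was the lowest of the 8 libraries for 14 of 37 members (37.8%), among them CTSD, TFF3, SLC9A3R1, GREB1, ABCA3, NADSYN1, WFS1, KCNK15 and PPIF, and for 40.9% of all tested genes, a share near that of the members. The median deviation of the members from their own 8-library mean was -0.14 in E2 replicate 2 and -0.10 for all tested genes there. Without that library the members' median difference turned from 0.035 to -0.024, and that of all tested genes from 0.014 to -0.022. Its share of reads in exons was also the lowest, at 78.3%, and its part in these values was not tested. E2+DHT replicate 2 was the lowest library for 6 members (16.2%, against 6.23% of all tested genes). The median deviation there was -0.061 for the members and -0.0026 for all tested genes, and the cause was not tested.

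**Figure D5:**
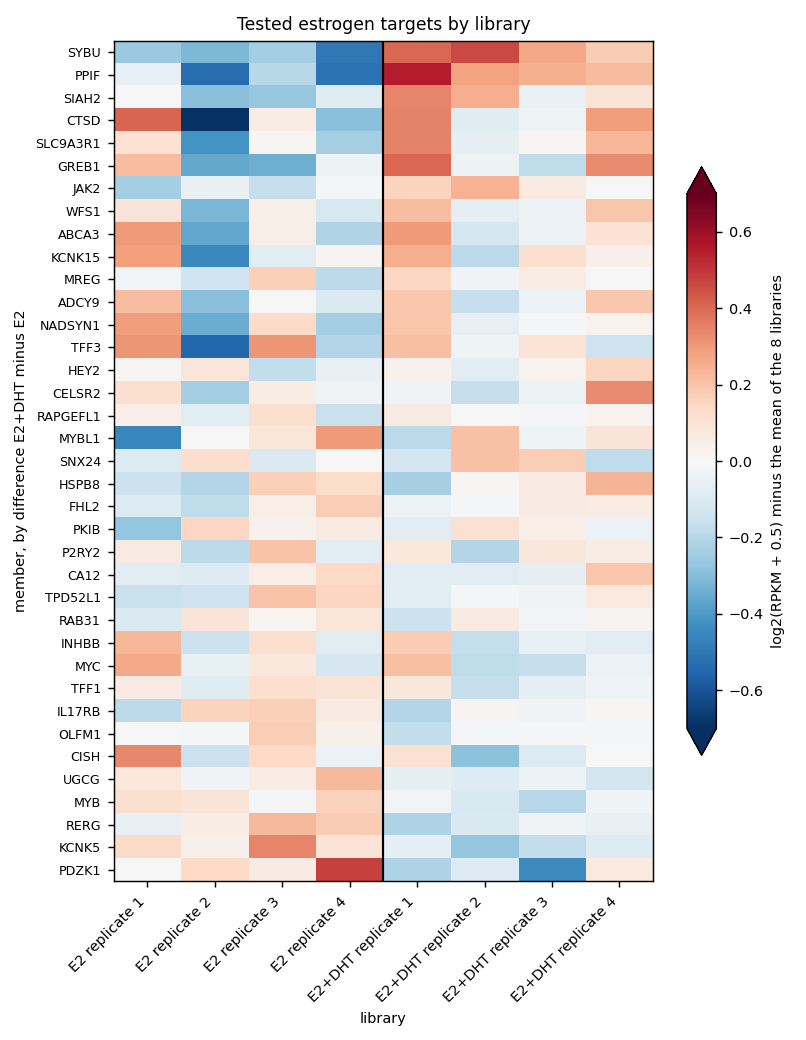
Deviation of log2(RPKM + 0.5) from the mean of the 8 libraries for the 37 tested members (rows, ordered by the difference between treatments) in each library (columns, E2 left and E2+DHT right of the line). SYBU and PPIF at the top and KCNK5 and PDZK1 at the bottom differ between the sides, while E2 replicate 2 is the lowest library for 14 members, furthest below for CTSD.

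Other genes of the estrogen pathway were described from lists written from background knowledge. Of 35 other estrogen response genes 30 were tested. BCL2, an inhibitor of apoptosis, fell (3.33%, against 0.00879% of all tested genes), 0 rose (against 0.176%) and 29 did not pass. BCL2 was the 1 lower gene of the whole table. The median log2 difference of the list was 0.0026, against 0.014 for all tested genes, and 16 of 30 were positive (53.3%, against 56.3%). BCL2 had 10.1 ± 0.448 RPKM in E2 and 7.49 ± 0.245 RPKM in E2+DHT (mean ± SD, n = 4 per group, limma adjusted p = 0.0337), and passed in 0 of the 8 fits without 1 library (limma adjusted p = 0.0511 to 0.177). At an unadjusted p under 0.05, SGK3, a kinase, TIPARP, a mono-ADP-ribosyltransferase, and FOS were higher (10%, against 2.87% of all tested genes). PGR, BCL2 and ELOVL2, a fatty acid elongase, were lower (10%, against 1.59%). This list too was chosen with earlier results of these data known, so its shares carry no test.

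PGR, the progesterone receptor, had 5.39, 5.03, 4.41 and 6.74 RPKM in E2 and 3.59, 3.72, 3.17 and 3.799 RPKM in E2+DHT, in replicate order. The groups did not overlap, and the log2 difference of -0.52 was further from 0 on the lower side than that of any of the 37 members, without passing (limma adjusted p = 0.158). SGK3, TIPARP and FOS had log2 differences of 0.38, 0.26 and 0.21 and ELOVL2 had -0.20. CCND1, the cyclin D gene most tied to estrogen, had -0.14 (interval -0.36 to 0.070).

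None of 14 tested genes of the estrogen receptor and its cofactors passed, and their median log2 difference was 0.0053. At an unadjusted p under 0.05, 1 was higher (7.14%, against 2.87% of all tested genes) and 2 were lower (14.3%, against 1.59%). ESR1 had 7.297, 5.87, 6.49 and 7.62 RPKM in E2 and 5.89, 4.98, 5.17 and 6.05 RPKM in E2+DHT, in replicate order. The 2 groups overlapped, with most E2 libraries higher (log2 difference -0.28, interval -0.49 to -0.068, limma adjusted p = 0.761). NCOA1, a coactivator, had a log2 difference of 0.24 (limma adjusted p = 0.357). FOXA1 and GATA3 had log2 differences of 0.029 and -0.084, with intervals of -0.16 to 0.22 and -0.26 to 0.089. In RNA from whole cultures, fewer cells with a transcript and less of it per cell cannot be told apart.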

How the data were processed

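Total RNA of 8 libraries was made into stranded libraries and read as paired ends, per the labels' protocols. The authors deposited RPKM values in 1 table of 57773 genes, with hg19 as the build per the submitters' processing notes. For the aligner, the counting tool, its use of strand and the annotation, the version or setting is not given in the sources used here. Whole reads were recovered from the steps of the RPKM values for 100% of the 27594 expressed genes (tolerance 0.0001 reads, shortest exon length that gave whole reads). Tested genes had a median of 529 reads per library.

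Values were compared as log2(RPKM + 0.5), a scale that understates the change of low genes, for 11375 genes with a mean of at least 0.5 RPKM. Groups were compared two-sided with limma 3.58.1 (R 4.3.3) with empirical Bayes moderation that follows intensity, no replicate block, and Benjamini-Hochberg adjustment over all tested genes (threshold 0.05); the script was tested on simulated data. Intervals are 95% and not adjusted. Tables, promoter searches and plots used Python 3.11.15, pandas 2.3.3, NumPy 2.4.6 and matplotlib 3.10.9.

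The members, the lists and the tests were chosen with earlier results of these data known. Library values are given for members with an adjusted or unadjusted p under 0.05 and for 10 long-known targets, and OLFM1 and CXCL12 were added after their values were seen. From the other lists, genes with an unadjusted p under 0.05 and 5 fixed genes are named; 1 gene counted in these lists is not reported here. The rule for promoters, an estrogen palindrome with at most 1 mismatch, chose none.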

Additional observations from a re-analysis of the deposited data

Results flagged for a closer look

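The 42 members in each treatment make 84 groups of 4 libraries. In 6 of them Dixon's test at the 95% level picked out 1 library as apart from the other 3, which chance alone does in about 1 in 20 groups. CA12 was 67.8 RPKM in E2+DHT replicate 4, against 56.1 to 56.7 in the others. RET was 0.268 RPKM (57 reads) in E2 replicate 1, against 0.165 to 0.176. OLFM1 was 7.41 RPKM in E2+DHT replicate 1, against 8.32 to 8.37. CXCL12 was 0.498 RPKM (65 reads) in E2 replicate 4, against 0.0738 to 0.134. PPIF was 45.4 RPKM in E2+DHT replicate 1, against 36.1 to 37.7. P2RY2 was 4.19 RPKM in E2+DHT replicate 2, against 5.09 to 5.21. The 6 values came from 5 libraries, and none came from E2 replicate 2.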

How the results depend on the processing

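The count of members past the threshold was 1 higher (SYBU) and 0 lower. No alternative gave a lower member. The higher count was 2 (SYBU and PPIF) after scaling every library to an equal RPKM sum, after median centring and with a replicate block, and 0 to 2 without single libraries. Adjusting over all 27594 expressed genes, with no filter, gave 0, as did a minimum mean of 2 RPKM, which SYBU does not reach. Groups taken from the record titles gave 0, and SYBU turned to -0.14. The 4 records whose labels agree also gave 0, with fewer samples (SYBU log2 difference 0.51). With pseudocounts of 0.1 and 1, without the intensity trend and with voom on recovered reads the count was also 1. Of the 9 members with an unadjusted p under 0.05, all kept their sign under every alternative except the record titles, where MYB alone kept it. After scaling to the same sum, 8 members turned sign, the largest of them at 0.065 before, and over all genes 18 were higher and 4 lower, against 20 and 1.

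Deviations from the group means of libraries with the same number correlated at 0.70, 0.45, 0.12 and 0.083 for numbers 1 to 4 over the tested genes, and not every library matched its own number best. The labels do not say that numbers mark pairs, so the block is given here only. With it 62 genes were higher and 10 lower, and the limma adjusted p was 0.00364 for SYBU and 0.00435 for PPIF. The cause of these changes was not tested. Members with few reads (RET, CXCL12, PRSS23, TGIF2, TMPRSS3) could show only a large difference.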
